A study of Rattus norvegicus with 6 samples.

Results

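The BCL2 family decides whether a stressed cell keeps its mitochondria intact or lets them leak and dies by apoptosis. Pro-survival proteins hold the membrane-damaging effectors in check, and small BH3-only proteins release that brake or push the effectors directly once DNA damage, loss of growth factors or other stress is sensed. In the mammary gland the family is best known for clearing milk-producing cells at weaning, and in breast cancer for BCL2 itself, a marker of luminal, estrogen receptor-positive disease. The 10 genes described here were taken from the deposited read count table by symbol: 3 pro-survival members (Bcl2, Bcl2l1 and Mcl1) and 7 pro-death members (the effectors Bax and Bak1 and the BH3-only genes Bid, Bad, Bcl2l11, Bbc3 and Pmaip1). All 10 symbols were found once each among the 26195 named rows of the table, and all 10 passed edgeR's filter on low counts, which left 13139 genes for testing.

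Bulk RNA-seq counts were available for 6 mammary tumors of female F344 rats, an inbred strain, each tumor a single library. The 3 older tumors (102, 107 and 116) came from rats given the carcinogen DMBA at 21 to 23 months of age and the 3 younger tumors (157, 158 and 167) from rats given it at 4 months. Both groups had the same treatment, 65 mg per kg of DMBA by a single gavage and a 50 mg pellet under the skin that released the progestin MPA over 90 days, so no untreated tissue was compared. The younger tumors were all those that formed in that cohort, whereas the older ones were those with enough tissue. Every tumor arose after carcinogen in 1 strain. The younger rats were virgin animals bought from Envigo and the older rats came from National Institute on Aging colonies. Age and source of the rats therefore cannot be told apart. These points limit what the groups stand for.

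Libraries held 3508571 to 6525830 counts, and 3 counts, taken as the floor, correspond to 0.528 to 1.03 CPM (read counts scaled by the library total of named genes and its TMM factor), which covers counting error only. Epcam, Krt8 and the other luminal epithelial markers were present in every tumor, with a summed level of 1411 to 1498 CPM in older and 1811 to 2049 CPM in younger tumors, and all 7 markers in the table had a lower mean in the older group. Older tumor 102 stood apart from the rest. Its profile over all tested genes had a mean Pearson correlation of 0.829 with the other tumors, against 0.867 to 0.898 for the others (across genes, which are not replicates), and its summed proliferation markers were at 132 CPM where the other 5 tumors had 600 to 984 CPM. Results for the 10 members that rest on tumor 102 are therefore given with and without it. Fold changes of other genes are given with all 6 tumors only.

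Every older tumor carried more Bcl2, Bid and Pmaip1 transcript than any younger tumor. The effectors Bax and Bak1 were lowest in older tumor 102, as were 27.4% of all tested genes, and their age groups overlapped. No difference between the age groups passed edgeR's test across all genes. With edgeR's quasi-likelihood test and Benjamini-Hochberg adjustment, 0 of the 10 members had an adjusted p under 0.05, as did 0% of the 13139 genes tested (0 genes); limma-voom also called 0 members and DESeq2 called 1. At an unadjusted p under 0.05 there were 3 members (Bcl2, Bid and Pmaip1) and 1110 genes, or 8.45% of all those tested. The age groups did not overlap for 3 members, all with the older tumors higher, where 6.49% of all tested genes had every older tumor above every younger one and 5.61% had every older tumor below. Taking only the direction of the difference, 6 members were higher and 4 lower in older tumors. Of all genes tested, 6523 were higher and 6616 lower. The median log2 fold change of the members was 0.59, against a median of -0.0039 over all genes tested. Taken apart by role, it was 1.02 for the 3 pro-survival members and -0.11 for the 7 pro-death members. Without tumor 102 the 6 higher members had -0.014 (Bcl2l1) to 1.30 (Bcl2). The 4 lower ones then had -0.37 (Bax) to -0.051 (Bbc3). The medians of 0.59 for all members and 1.02 for the pro-survival members therefore rest largely on that tumor.

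**Figure D1:**
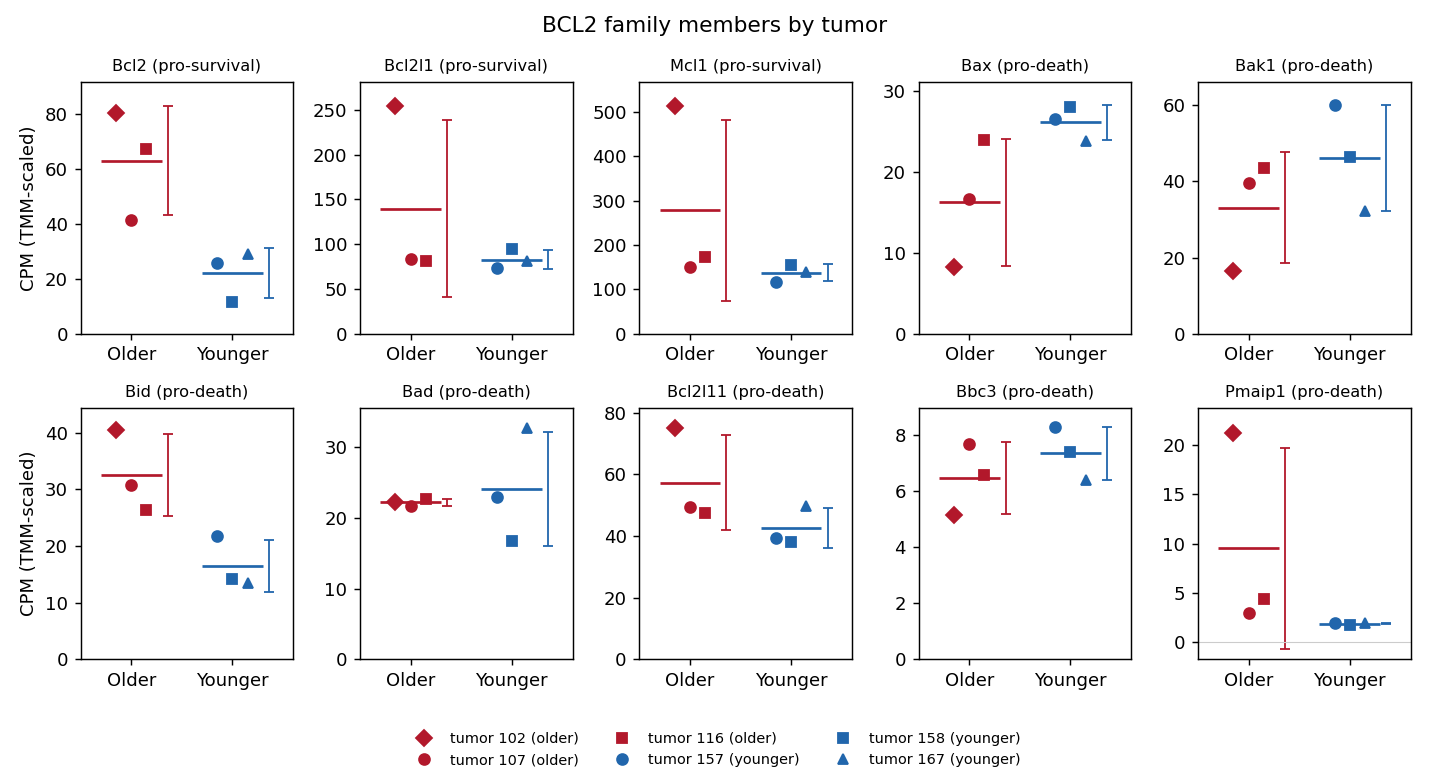
TMM-scaled CPM (linear axis, a scale of its own for each gene) of the 10 BCL2 family members in each older (red) and younger (blue) tumor, with the group mean as a line and the SD (n = 3) as a bar beside it. All older points of Bcl2, Bid and Pmaip1 lie above the younger points, and tumor 102 (diamond) is the highest of the 6 for 6 members and the lowest for 3.

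The regulatory sequence just before the transcription start is shown for 3 members that the results turn on: Bcl2, the member with the smallest p-value, and Mcl1 and Pmaip1, which were at least 2.98 times higher in tumor 102 than in any other tumor. These are the 250 bases before the RefSeq start in assembly GRCr8, at chr13:23366901-23367150 (minus strand) for Bcl2, chr2:185907918-185908167 (plus strand) for Mcl1 and chr18:62255720-62255969 (plus strand) for Pmaip1, written 5′ to 3′ along the gene. Capitals mark the ATF/CREB half-site TGACGT and the GC box GGGCGG on either strand.
Bcl2: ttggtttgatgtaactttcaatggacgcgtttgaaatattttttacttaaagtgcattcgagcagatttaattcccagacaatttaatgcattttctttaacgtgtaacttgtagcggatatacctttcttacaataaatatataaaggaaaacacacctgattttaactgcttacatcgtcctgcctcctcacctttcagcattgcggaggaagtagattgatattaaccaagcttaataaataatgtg
Mcl1: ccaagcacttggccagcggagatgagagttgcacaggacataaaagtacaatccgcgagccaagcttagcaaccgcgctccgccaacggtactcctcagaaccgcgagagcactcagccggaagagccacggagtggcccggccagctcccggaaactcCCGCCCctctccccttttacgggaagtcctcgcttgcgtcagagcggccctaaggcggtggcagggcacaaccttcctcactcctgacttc
Pmaip1: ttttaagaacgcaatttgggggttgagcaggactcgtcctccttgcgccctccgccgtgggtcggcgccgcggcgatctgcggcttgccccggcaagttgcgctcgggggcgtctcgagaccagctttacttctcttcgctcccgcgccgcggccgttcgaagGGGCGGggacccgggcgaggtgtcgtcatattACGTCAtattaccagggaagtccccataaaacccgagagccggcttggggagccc

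Of the 8 members in the promoter table, only Pmaip1 holds the ATF/CREB half-site in this window, beginning 55 bases before the start and on the other strand, and 6.95% of all 33469 windows hold it. The GC box is in the windows of 5 of these members (Bak1, Bcl2l11, Bid, Mcl1 and Pmaip1) and in 30.47% of all windows. It begins 91 bases before the start of Mcl1 and 87 bases before that of Pmaip1. The printed window of Bcl2 contains neither string of letters. Bax and Bbc3 were not matched.

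Bcl2 encodes the founding pro-survival protein, which binds BH3-only proteins and effectors at the mitochondrial and endoplasmic reticulum membranes. It was at 80.4 CPM in tumor 102, 41.4 in tumor 107 and 67.4 in tumor 116 among older tumors, and at 25.7 in tumor 157, 11.7 in tumor 158 and 29.0 in tumor 167 among younger ones. The lowest older tumor thus lay above the highest younger tumor, and tumor 158 was the lowest of all. The means were 63.1 ± 19.9 CPM (SD, n = 3) in older and 22.1 ± 9.18 CPM (SD, n = 3) in younger tumors, a 2.85-fold difference and a log2 fold change of 1.51 (SE, the standard error, 0.41, unadjusted p = 0.00704, adjusted p = 0.36, edgeR). Ranked by p-value Bcl2 stood at place 253 of the 13139 genes tested. Without tumor 102 the log2 fold change was 1.30 and the age groups still did not overlap. With DESeq2's Wald test Bcl2 was the 1 member past the threshold (log2 fold change 1.51, adjusted p = 0.0412), where 2.49% of the genes with an adjusted p in that test passed it.

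Markers of T cells and macrophages also had higher means in the older tumors. The 7 T cell markers in the table summed to 23.3, 143 and 31.7 CPM in tumors 102, 107 and 116 and to at most 17.6 CPM in younger tumors. All 7 had a higher mean in the older group. For Cd3e and Cd8a every older tumor lay above every younger one, as for 6.49% of all tested genes. Cd2 missed the filter on low counts. It separated the groups only by 1.03 CPM in tumor 102 (3 counts, the floor) against 0.983 CPM in tumor 167 (4 counts). The sum in tumor 107 came mainly from Cd8a (74.2 CPM), which rat natural killer cells carry too, and Lck (56.1 CPM), while Cd3e, part of the T cell receptor complex, was at 4.30 CPM there and highest in tumor 116 at 5.18 CPM. The 8 macrophage markers summed to 416 to 480 CPM in older and 153 to 532 CPM in younger tumors; 7 had a higher older mean, and Cd68, Csf1r and Adgre1 were higher in every older tumor. The B and plasma cell markers summed to 13.7, 5.20 and 22.3 CPM in the older tumors and to 3.87 to 4.92 CPM in younger ones, mainly from Jchain in the older tumors, while Ms4a1 and Cd79b were at 0 counts in all 6 tumors. The adipocyte markers summed to 175, 33.5 and 19.9 CPM in older and to 6.15 to 18.0 CPM in younger tumors, but 0 of the 5 markers separated the groups, and Lep alone gave 24.9 CPM of the sum in tumor 107. The part of these cell types and of the lower luminal markers in the Bcl2, Bid and Pmaip1 differences was not tested, and in whole tumor RNA fewer cells of a type and less RNA per cell cannot be told apart.

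The 3 genes whose profile over the 6 tumors was nearest to that of Bcl2, by the root mean square difference of centred log2 CPM, were LOC120103254 (0.11), Gimap5 (0.16) and Cemip2 (0.20), out of 13139 candidates. Gimap5 was at 10.3, 4.75 and 6.38 CPM in older tumors 102, 107 and 116 and at 1.08 to 2.47 CPM in younger tumors. This is a likeness over 6 points that share their scaling factors.

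Bcl2l1, the gene of BCL-XL, which guards epithelial cells and platelets, had nearly the same level in 5 of the 6 tumors. It was at 254 CPM in older tumor 102, 83.2 in tumor 107 and 81.6 in tumor 116, and at 72.9, 94.1 and 81.4 CPM in younger tumors 157, 158 and 167. The value in tumor 102 was 2.70 times the next highest. The mean of the older group, 140 ± 99.1 CPM (SD, n = 3) against 82.8 ± 10.7 CPM (SD, n = 3), gave a log2 fold change of 0.75 (SE 0.46, adjusted p = 0.777, edgeR) that became -0.014 without tumor 102.

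Mcl1, a short-lived pro-survival protein whose amount follows its synthesis closely, was the member with the most counts in every tumor. Older tumors 102, 107 and 116 had 512, 150 and 172 CPM, and younger tumors 157, 158 and 167 had 117, 155 and 140 CPM. As with Bcl2l1, tumor 102 was far above the others (2.98 times the next), and the other 5 tumors lay between 117 and 172 CPM with the groups overlapping. The log2 fold change was 1.02 (SE 0.49, adjusted p = 0.660, edgeR) and fell to 0.22 when tumor 102 was left out. So all 3 pro-survival members peaked in tumor 102, as did 3 of the 7 pro-death members (Bid, Bcl2l11 and Pmaip1). Of all tested genes, 25.6% had their highest level there.

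The effectors were lowest in that tumor. Bax, which moves from the cytosol to mitochondria to form pores, was at 8.22 CPM in tumor 102, 16.7 in tumor 107 and 23.9 in tumor 116, and at 26.6, 28.1 and 23.8 CPM in younger tumors 157, 158 and 167. The groups touched, since tumor 116 lay just above tumor 167. Means were 16.3 ± 7.87 CPM (SD, n = 3) in older and 26.2 ± 2.17 CPM (SD, n = 3) in younger tumors, a log2 fold change of -0.67 (SE 0.40, adjusted p = 0.757, edgeR), or -0.37 without tumor 102. The genes nearest to Bax by profile were Cnih2 (root mean square difference 0.083), Ndufa11 (0.11) and Park7 (0.11).

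Bak1, the second pore-forming effector, which sits in the mitochondrial membrane at rest, was at 16.4, 39.6 and 43.5 CPM in older tumors 102, 107 and 116 and at 60.0, 46.3 and 32.2 CPM in younger tumors 157, 158 and 167. Apart from tumor 102 the values overlapped freely. Its log2 fold change was -0.47 (SE 0.41, adjusted p = 0.865, edgeR) with all tumors and -0.16 without tumor 102. Tumor 102 had the lowest level of both effectors and of Bbc3, where 27.4% of all tested genes were lowest in that tumor.

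Bid, a BH3-only protein that caspase-8 cuts to carry a death receptor signal to mitochondria, was the pro-death member with the smallest p-value. It was at 40.4, 30.8 and 26.3 CPM in older tumors 102, 107 and 116 and at 21.8, 14.2 and 13.5 CPM in younger tumors 157, 158 and 167. Every older tumor exceeded every younger one, with means of 32.5 ± 7.19 and 16.5 ± 4.61 CPM (SD, n = 3 each). The log2 fold change of 0.97 (SE 0.32, unadjusted p = 0.0164, adjusted p = 0.432, edgeR) was 0.78 without tumor 102.

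Pmaip1, the gene of NOXA, a BH3-only protein that neutralises MCL1, had few counts: 62, 13 and 22 in older tumors 102, 107 and 116 and 11, 10 and 8 in younger tumors 157, 158 and 167. These correspond to 21.2, 2.94 and 4.39 CPM in the older and to 1.94, 1.80 and 1.97 CPM in the younger tumors. The younger tumors were nearly alike and the older ones were above them, tumor 102 by far. The log2 fold change was 2.28 (SE 0.81, unadjusted p = 0.0234, adjusted p = 0.476, edgeR), the largest of the 10 members. It was 0.94 without tumor 102, where the groups still did not overlap, although tumor 107 stood on 13 counts.

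The remaining BH3-only genes had age groups that overlapped. Bcl2l11 encodes BIM, which binds every pro-survival member and responds to loss of growth factors. It was at 75.0, 49.3 and 47.5 CPM in older tumors 102, 107 and 116 and at 39.4, 38.0 and 49.9 CPM in younger tumors 157, 158 and 167, so the groups overlapped at tumor 167. Its log2 fold change was 0.43 (SE 0.27, 95% interval -0.33 to 1.19, adjusted p = 0.786, edgeR), or 0.19 without tumor 102. Bad, a BH3-only protein kept inactive by survival kinases, was the steadiest in the older group at 21.7 to 22.7 CPM, while younger tumors spanned 16.8 to 32.7 CPM. The log2 fold change of Bad was -0.11 (SE 0.31, 95% interval -0.98 to 0.75, adjusted p = 0.969, edgeR). Bbc3, the gene of PUMA, a DNA damage-induced protein that can block every pro-survival member, lay between 5.13 and 7.69 CPM in older and between 6.39 and 8.28 CPM in younger tumors. Its log2 fold change was -0.18 (SE 0.38, 95% interval -1.24 to 0.88, adjusted p = 0.953, edgeR), and these intervals do not show that the groups were alike.

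**Figure D2:**
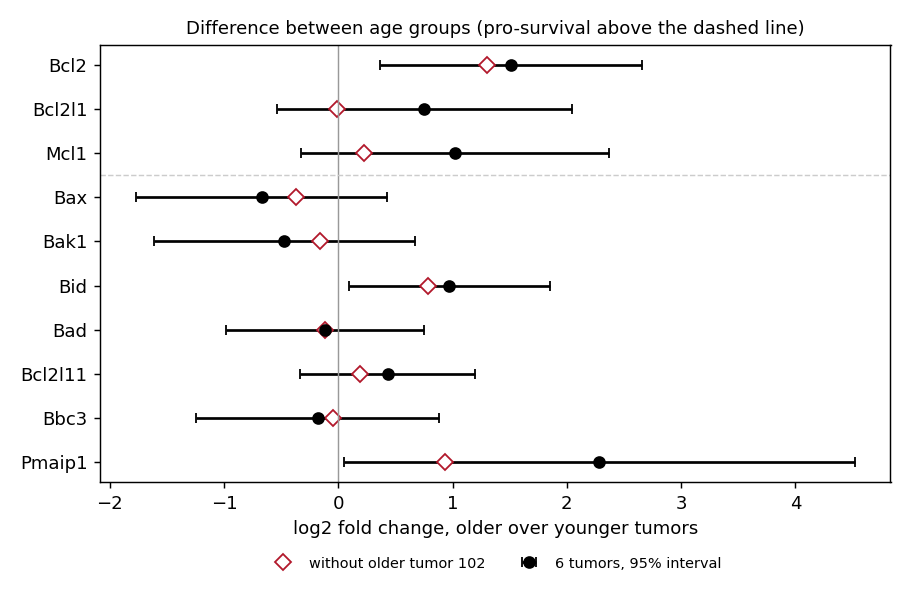
Log2 fold change of older over younger tumors for each member from edgeR (black points, n = 3 per group) with 95% intervals from its standard error on 4 residual degrees of freedom, and the same value without older tumor 102 (open diamonds). The interval lies above 0 for Bcl2, Bid and Pmaip1 before adjustment, and leaving out tumor 102 moves Bcl2l1 from 0.75 to -0.014 and Pmaip1 from 2.28 to 0.94.

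The ratio of a pro-death to a pro-survival transcript within a tumor does not depend on how libraries are scaled, and only its difference between tumors can be read, because counts also depend on gene length. The log2 ratio of Bax to Bcl2 counts, often used as a short measure of readiness for apoptosis, was -3.26, -1.30 and -1.49 in older tumors 102, 107 and 116 and 0.048, 1.26 and -0.28 in younger tumors 157, 158 and 167. Every older tumor lay below every younger one. The group means were -2.02 ± 1.08 and 0.34 ± 0.81 (SD, n = 3 each), and the difference of -2.36 was -1.74 without tumor 102. It combines the Bcl2 difference described above with the smaller Bax difference and is not a further line of evidence.

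The other pairs overlapped between age groups. The log2 ratio of Bbc3 to Mcl1 was -6.59, -4.27 and -4.69 in older tumors 102, 107 and 116 and -3.80, -4.37 and -4.43 in younger tumors 157, 158 and 167, with tumor 102 far below the others. The log2 ratio of Bcl2l11 to Bcl2l1 was -1.76, -0.75 and -0.78 in the older and -0.88, -1.30 and -0.70 in the younger tumors, again lowest in tumor 102. Older tumors minus younger tumors, the mean difference was -0.98 for the Bbc3 ratio and -0.13 for the Bcl2l11 ratio. Without tumor 102 these became -0.28 and 0.20.

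**Figure D3:**
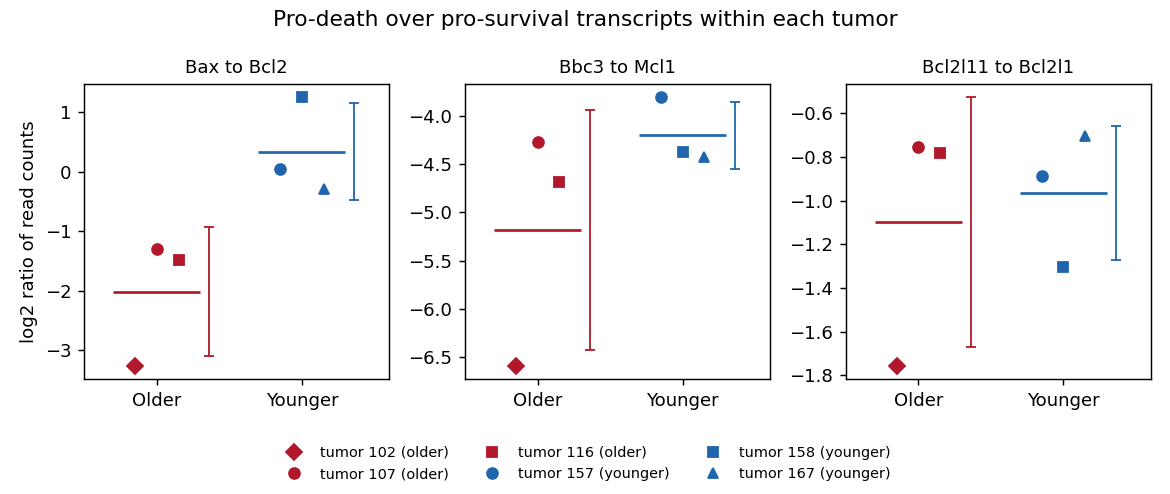
Log2 ratio of pro-death to pro-survival read counts (0.5 added to each count) in each older (red) and younger (blue) tumor, with group means as lines and the SD (n = 3) as bars, on an axis of its own for each pair that does not start at 0. The Bax to Bcl2 ratio is below -1.30 or at it in all older tumors and -0.28 or above in all younger ones, and tumor 102 is the lowest point in all 3 panels.

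The wider apoptosis pathway was read through 7 lists of other genes, of which 72 were in the table and 69 were tested. In the 69 tested genes 26 were higher and 43 lower in older tumors by sign, with 0 past the adjusted threshold and 8 at an unadjusted p under 0.05 (edgeR). Their age groups did not overlap for 3 of the 69 genes with older tumors higher and for 6 with older tumors lower, beside 6.49% and 5.61% of all tested genes. With library totals as the scaling, 3 of these 9 genes (Naip6, Vdac3 and Bcap31) overlapped. Other listed genes separated the groups only under that scaling: Tnfrsf1a, Bnip3 and Ddit3 with older tumors lower and Bcl2l14 with older tumors higher. Lists differed in their medians, from -0.31 for mitochondrial partners and for DNA damage response genes to 0.32 for the inhibitors of apoptosis.

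Among 9 tested genes of the other BCL2 family list, 5 were higher, 4 lower and 0 called, with a median log2 fold change of 0.070. Bmf, a BH3-only protein released when cells lose their anchorage, was at 182 CPM in tumor 102, 52.7 and 66.8 CPM in the other older tumors and 30.0 to 65.3 CPM in younger ones (log2 fold change 1.24, SE 0.54, adjusted p = 0.603, edgeR). Bcl2l14 had a log2 fold change of 1.29 (SE 0.56, adjusted p = 0.597). Bok, a relative of the effectors, had -1.26 (SE 0.58, adjusted p = 0.630) and Bik, a BH3-only protein of the endoplasmic reticulum, -1.04 (SE 0.60, adjusted p = 0.744). Bmf and Bcl2l14 had their highest level in tumor 102, as did the 3 pro-survival members and the pro-death members Bid, Bcl2l11 and Pmaip1.

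Downstream of the mitochondria the list of apoptosome and caspase genes gave small differences, with 3 of 12 tested genes higher, 9 lower and 0 called, and a median log2 fold change of -0.14. Apaf1, the scaffold of the apoptosome, was at 0.23 (SE 0.22, adjusted p = 0.878, edgeR), and Aifm1, a mitochondrial flavoprotein, at -0.23 (SE 0.24, adjusted p = 0.889). Cycs, cytochrome c, has many processed gene copies that can take its reads and stood at only 1.58 to 4.99 CPM, so its value is uncertain.

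Among 6 tested inhibitors of apoptosis 4 were higher, 2 lower and 0 called. Birc3, an NF-kB target that restrains death receptor signaling, was at 121, 25.3 and 70.2 CPM in older tumors 102, 107 and 116 and at 36.8, 12.8 and 18.4 CPM in younger tumors 157, 158 and 167, with the groups overlapping (log2 fold change 1.66, SE 0.62, adjusted p = 0.510, edgeR). Naip6, one of several near copies of a gene whose reads can be split, had 1.91 (SE 0.70, adjusted p = 0.495) and separated the groups only by 4.45 CPM in tumor 102 (13 counts) against 4.43 CPM in tumor 167 (18 counts), which overlapped with library totals as the scaling. Birc5, survivin, which rises with cell division, had -0.54 (SE 0.66, adjusted p = 0.911), and Birc6 -0.016 (SE 0.24, adjusted p = 0.993).

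In the death receptor pathway, 5 of 10 tested genes were higher, 5 lower and 0 called. Cflar, which encodes FLIP, the decoy that keeps caspase-8 from firing and so acts before Bid, was at 91.7, 64.9 and 63.2 CPM in older tumors 102, 107 and 116 and at 39.1, 50.7 and 36.6 CPM in younger tumors 157, 158 and 167. The groups did not overlap, and the log2 fold change was 0.80 (SE 0.26, adjusted p = 0.436, edgeR). Faslg, the killing ligand of cytotoxic lymphocytes, had 2.25 (SE 0.87, adjusted p = 0.541), with 27.4 CPM in tumor 107 and 1.48 to 4.59 CPM elsewhere. Its receptor Fas had -0.35 (SE 0.39, adjusted p = 0.905) and Tnfrsf1a, the main TNF receptor, -0.55 (SE 0.29, adjusted p = 0.699).

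Bax, Bbc3 and Pmaip1 are textbook targets of the DNA damage response, and the list of DNA damage response genes held 12 tested genes, 3 higher, 9 lower and 0 called. The age groups did not overlap for 4 of them, all lower in older tumors, where 5.61% of all tested genes were lower without overlap. Zmat3, an RNA-binding protein of that response, was at 36.6, 44.1 and 40.5 CPM in older tumors 102, 107 and 116 and at 80.2 to 82.4 CPM in younger tumors (log2 fold change -1.01, SE 0.21, adjusted p = 0.278, edgeR). Sesn2 had -1.24 (SE 0.31, adjusted p = 0.333). Cdkn1a, the cell cycle inhibitor p21, and Ccng1 complete the 4 and are named after their values were seen, with -1.76 (SE 0.45, adjusted p = 0.342) and -0.60 (SE 0.27, adjusted p = 0.614). The death genes of that response gave values of both signs, -0.67 for Bax, -0.18 for Bbc3 and 2.28 for Pmaip1. On the higher side Aen had 0.38 (SE 0.39, adjusted p = 0.895) and Mdm4 0.21 (SE 0.24, adjusted p = 0.907).

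The mitochondrial partners, outer membrane channels and proteins that bind the family, had 2 of 9 genes higher, 7 lower and 0 called. Bnip3, a hypoxia-induced relative of the BH3-only genes, was at 152 CPM in tumor 102, 29.4 and 50.5 CPM in the other older tumors and 143 to 175 CPM in younger ones, with a log2 fold change of -1.06 (SE 0.56, adjusted p = 0.712, edgeR). Bcap31, an endoplasmic reticulum protein cut by caspases, had -0.41 (SE 0.22, adjusted p = 0.716) and Vdac3, a channel of the outer membrane, 0.26 (SE 0.21, adjusted p = 0.848). Marchf5, a ubiquitin ligase of that membrane, was at 0.015 (SE 0.23, adjusted p = 0.993).

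Among regulators of MCL1 and BIM, 4 of 11 tested genes were higher, 7 lower and 0 called, with a median of -0.050. Ddit3, the stress factor CHOP that can induce BIM, had a log2 fold change of -0.79 (SE 0.43, adjusted p = 0.729, edgeR) and Dynll1, the motor light chain that holds BIM and BMF, -0.30 (SE 0.48, adjusted p = 0.939). Foxo3, a BIM activator, had 0.14 (SE 0.35, adjusted p = 0.959) and Btrc, a ubiquitin ligase subunit, 0.27 (SE 0.50, adjusted p = 0.945). Mapk3 was listed at 0 counts in every tumor.

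**Figure D4:**
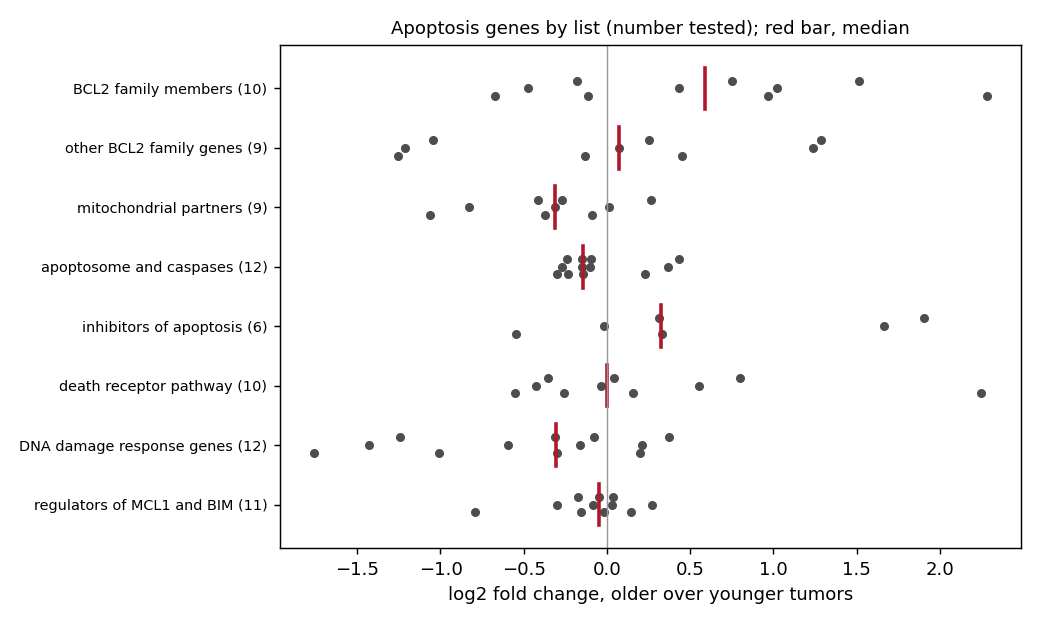
Log2 fold change of older over younger tumors for every tested gene (points, edgeR, n = 3 per group) of the BCL2 family members and of 7 lists of other apoptosis genes, with the median of each list as a red bar and the number tested in brackets. With all 6 tumors the members have a median of 0.59, and the 12 apoptosome and caspase genes a median of -0.14.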

How the data were processed

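RNA-seq read counts of 6 rat mammary tumors were analysed, 3 per age group, with groups taken from the sample titles. The authors removed ribosomal RNA, checked reads with FastQC 0.11.7, trimmed adapters with Trimmomatic 0.38, aligned with STAR 2.7.9a, marked duplicates with Picard 2.18.12 and counted with HTSeq 0.13.5. The submitters' notes name mRatBN7.2; the annotation and strand setting are not given in the sources used here, and without strand, overlapping genes cannot be told apart. The deposited values are whole read counts per gene without normalization. The labels say polyA RNA where the methods describe ribosomal RNA depletion. Totals and depth limits are given with the tumors above.

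Of 30562 rows, 4367 carry no gene name (2.17% to 3.64% of counts per tumor) and were left out of library sizes and tests. In R 4.3.3, edgeR 4.0.16 was used with filterByExpr, TMM scaling and the robust quasi-likelihood test of older against younger tumors, with Benjamini-Hochberg adjustment over all genes tested and a threshold of 0.05. Standard errors were calculated back from the F statistic, and log2 CPM used a prior count of 2. DESeq2 1.42.0 (Wald test, size factors), limma 3.58.1 (voom), library totals, other filters on low counts and leaving out each tumor were alternatives; keeping unnamed rows, and counting genes without overlap under other scalings and with a tumor left out, were added after seeing the data. The code was tested on simulated data.

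The members and gene lists were chosen with earlier results of these data known. Every member was named. From each other list at most the 2 higher and 2 lower genes with the smallest p were named, and for Bcl2 and Bax the 3 nearest profiles. The p-values measure the spread between tumors of separate rats as labelled. All 10 member symbols are in RefSeq's gene list for GRCr8, and 8 have a promoter window there. No transcript lengths were used, so levels were compared within a gene. Some genes that this rule would name are not reported here.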

Additional observations from a re-analysis of the deposited data

How the results depend on the processing

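No paired analysis was possible because every tumor is from its own rat and no replicate number recurs between the age groups. With DESeq2's Wald test 326 genes and 1 member, Bcl2, passed the adjusted threshold, against 0 and 0 with edgeR. Both counts stayed at 0 when limma-voom, library totals, DESeq2's scaling, the other filters or the unnamed rows were used, and in each of the 6 fits without 1 tumor. The cause of the DESeq2 difference was not tested. At an unadjusted p under 0.05 there were 1 to 5 members in those 6 fits, 1 without younger tumor 158 (8.65% of all tested genes) or 167 (8.07%) and 5 without older tumor 116 (10.4%). Requiring 10 counts in every tumor removed Pmaip1. Members whose age groups do not overlap numbered 3 under every scaling and 3 to 6 with a tumor left out, 5 without younger tumor 158 and 6 without younger tumor 167. Fewer tumors are then left to overlap, and the share over all tested genes, both directions, was 23.7% and 26% in these fits and between 17.8% and 27% over all 6.

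With a tumor left out, the log2 fold change ran from 1.21 to 1.75 for Bcl2, from 0.78 to 1.22 for Bid and from 0.94 to 2.71 for Pmaip1. The sign changed for Bad (-0.31 to 0.16, higher only without younger tumor 167) and for Bcl2l1 (-0.014 to 1.02, lower only without older tumor 102), and for no other member. Ratio differences ran from -2.72 to -1.74 for Bax to Bcl2, from -1.44 to -0.28 for Bbc3 to Mcl1 and from -0.30 to 0.20 for Bcl2l11 to Bcl2l1. With a pseudocount of 2 they were -2.32, -0.95 and -0.13. Depth limits Pmaip1 most, at 8 to 62 counts a tumor.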
